A study of Homo sapiens with 8 samples.

Results

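The proximal signaling machinery of the B cell receptor (BCR) was examined in the rituximab-sensitive Burkitt lymphoma line Raji and in its rituximab-resistant derivative Raji-4RH. It was taken as 10 genes chosen by name for their role, CD79A, CD79B, LYN, BLK, SYK, BTK, BLNK, PLCG2, CD22 and PTPN6, out of 63967 gene labels in the table. The choice was made with earlier results of these data known. Levels could be assigned to 9 of them. LYN stands outside the part of the table whose values could be matched to labels, and its level is not reported here.

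When antigen binds the receptor, Src-family kinases such as LYN and BLK phosphorylate the paired signaling chains CD79A and CD79B, and the kinase SYK docks on them. SYK phosphorylates the adaptor BLNK, which brings BTK and the phospholipase PLCG2 together, so that calcium, NF-κB and MAP kinase signals follow. CD22, a receptor of the Siglec family, recruits the phosphatase PTPN6 (SHP-1) and dampens the signal, and many B cell lymphomas depend on parts of this pathway.

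RNA-seq was performed on 4 groups with 2 replicate libraries each, 8 in all, namely Raji with DMSO, Raji with 3 μM chidamide, Raji-4RH with DMSO and Raji-4RH with 3 μM chidamide, each for 24 h. Chidamide is a benzamide-type inhibitor of histone deacetylases, and DMSO is its solvent. Raji-4RH was made from Raji by repeated exposure to rituximab, an antibody against CD20, so that the lines differ in that history as well as in resistance, and each resistance state is represented by 1 line. The labels do not say whether replicates were separate cultures, so p-values measure the spread between these libraries, which may be technical. That spread was estimated for each gene over all 4 groups together, so it is not the spread of 1 line. The Raji-4RH chidamide replicates correlated at 0.992 over the tested genes, and the replicates of each other group at 0.998.

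Levels are FPKM, that is, reads scaled to the length of the gene and to the total of the library. Library totals, inferred from the FPKM values as reads assigned to genes, lay between 13991697 and 21193441 reads. The shallowest library was Raji-4RH chidamide replicate 1. In the table, values and labels are out of step by a number of rows that grows down the table, and the values of 18143 labels were moved to their label. CD79A, CD79B, BTK, BLNK, CD22 and PTPN6 needed no move, while the values of BLK, SYK and PLCG2 stood 1, 3 and 14 rows below their labels. Among genes whose values were moved, 79 of 89 ribosomal protein genes reached 10 FPKM after the move and 28 before it, and 254 of 258 olfactory receptor genes lay under 0.1 FPKM after it and 87 before. A difference was called when limma gave a Benjamini-Hochberg adjusted p-value under 0.05 over the 10710 genes tested, those that reached 1 FPKM in 2 or more libraries. Differences are given on the log2(FPKM + 1) scale, which understates the change of genes near 0.

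The promoters of the 4 members with the largest responses to chidamide in Raji are shown first. CD79A and BLNK went down, and CD22 and PTPN6 went up. They were picked by the size of that response, and SYK, BTK and PLCG2 have entries too. In Raji-4RH the rise of CD22 was smaller in size than the responses of BTK, BLK and PLCG2. RefSeq (GRCh38.p14) has an entry for 7 of the 10 members, with 11 starts, and none in the table used here for CD79B, LYN and BLK. Each line holds the 250 bases before a transcription start, 5′ to 3′ on the gene's strand. These are CD79A at chr19:41877029-41877278 (plus strand), BLNK at chr10:96271570-96271819 (minus strand), CD22 at chr19:35328937-35329186 (plus strand), and PTPN6 at chr12:6946327-6946576 and at chr12:6951106-6951355 (plus strand). The starts are those of RefSeq, while the gene coordinates given below are those of GENCODE v29. By those coordinates the CD79A, BLNK and upstream PTPN6 windows lie partly inside the gene. The CD22 and downstream PTPN6 windows lie wholly inside it. Capitals mark matches, on either strand, to an octamer (ATGCAAAT), an E-box (CAGGTG), an EBF1-type motif (CCCNNGGG), a PU.1-type motif (GAGGAA), a GC box (GGGCGG) and a TATA box (TATAAA).
CD79A: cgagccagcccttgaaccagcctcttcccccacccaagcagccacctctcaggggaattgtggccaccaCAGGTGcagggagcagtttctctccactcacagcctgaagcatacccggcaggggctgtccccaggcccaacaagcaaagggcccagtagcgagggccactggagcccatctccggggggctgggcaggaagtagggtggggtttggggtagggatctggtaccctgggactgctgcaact
BLNK: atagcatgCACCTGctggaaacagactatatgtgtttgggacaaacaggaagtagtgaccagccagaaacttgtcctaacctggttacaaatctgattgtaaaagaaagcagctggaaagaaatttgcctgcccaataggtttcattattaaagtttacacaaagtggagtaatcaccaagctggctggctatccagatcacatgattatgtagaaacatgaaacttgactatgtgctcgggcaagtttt
CD22: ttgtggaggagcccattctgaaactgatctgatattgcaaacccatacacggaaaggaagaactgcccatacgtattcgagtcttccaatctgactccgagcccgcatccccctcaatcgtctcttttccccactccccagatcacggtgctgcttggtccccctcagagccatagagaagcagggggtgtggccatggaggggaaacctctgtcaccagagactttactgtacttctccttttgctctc
PTPN6 upstream start: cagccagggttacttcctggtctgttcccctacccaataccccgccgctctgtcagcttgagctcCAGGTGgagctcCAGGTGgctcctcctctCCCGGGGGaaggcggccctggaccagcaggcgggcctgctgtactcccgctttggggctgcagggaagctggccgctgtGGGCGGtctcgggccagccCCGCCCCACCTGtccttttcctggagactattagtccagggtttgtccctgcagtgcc
PTPN6 downstream start: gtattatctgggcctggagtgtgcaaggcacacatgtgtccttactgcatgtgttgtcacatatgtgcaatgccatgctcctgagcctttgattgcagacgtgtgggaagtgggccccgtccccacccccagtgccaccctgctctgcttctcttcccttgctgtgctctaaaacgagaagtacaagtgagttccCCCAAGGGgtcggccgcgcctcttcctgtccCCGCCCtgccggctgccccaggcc

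CD79A and BLNK each held 1 E-box and no other match, 181 to 176 and 242 to 237 bases before the start. The CD22 window held none of the 6 motifs. The upstream PTPN6 start had 3 E-boxes, 1 EBF1-type motif and 2 GC boxes, and its downstream start had 1 EBF1-type motif and 1 GC box. Sequences not shown held matches too. BTK, which fell in both lines, had EBF1-type, PU.1-type and GC box matches. PLCG2, which rose in both, had an E-box and a GC box. SYK had E-box, GC box and PU.1-type matches among its 3 starts. The E-box, the EBF1-type motif and the GC box each occurred among members that fell and members that rose. Of all 35116 starts in the RefSeq table, 17.5% held the E-box, 17.1% the EBF1-type motif, 42.6% the GC box, 23.6% the PU.1-type motif, 10.7% the TATA box and 1.63% the octamer. The GC content of the windows ran from 40.4% (BLNK) and 52.8% (CD22) to 64.0% (CD79A) and 66.4% (upstream PTPN6 start), against a median of 58.0% over all starts. These matches describe letters only, and binding of any factor was not measured.

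The labelled cell type was checked first. All 7 B cell markers examined (MS4A1, PAX5, CD79A, CD79B, CD22, VPREB3 and EBF1) and all 6 germinal centre and Burkitt lymphoma markers averaged at least 1 FPKM in each of the 4 groups. Summed markers of most other cell types were low with DMSO and higher with chidamide. The summed level of 6 myeloid markers was 1.13 to 1.31 FPKM in the DMSO libraries of both lines and 9.80 to 11.2 FPKM in the chidamide libraries, mainly CSF1R and ITGAM in both lines and LYZ in Raji-4RH, while CD14 and CD68 stayed under 1 FPKM and MPO was at or near 0. The 6 placed of 7 T cell markers summed to 0.800 to 1.45 FPKM with DMSO and 6.36 to 6.97 FPKM with chidamide, mainly CD28 and, in Raji-4RH, CD3E, with CD3D and CD2 at 0 in the DMSO libraries. The 5 natural killer cell markers summed to 1.40 to 1.7 FPKM in Raji DMSO, 2.99 to 3.84 FPKM in Raji chidamide, 12.1 to 13.5 FPKM in Raji-4RH DMSO and 28.6 to 29.6 FPKM in Raji-4RH chidamide, through NKG7 and PRF1, while NCR1, GNLY and KLRD1 were at or near 0. The 4 fibroblast markers summed to 0.0409 to 0.191 FPKM with DMSO and 1.16 to 2.35 FPKM with chidamide, and the 4 epithelial markers stayed at or below a sum of 0.522 FPKM in every library. The 6 plasma cell markers summed to 460.5 to 479 FPKM in Raji DMSO, 275 to 278 FPKM in Raji chidamide, 233 to 235 FPKM in Raji-4RH DMSO and 212 to 233 FPKM in Raji-4RH chidamide, mostly JCHAIN, which averaged 434 FPKM in Raji DMSO and 238 FPKM in Raji chidamide. In Raji IRF4 went from an average of 0.535 to 5.20 FPKM, PRDM1 averaged at least 1 FPKM only in the chidamide groups, and SDC1 stayed under 1 FPKM. Of the 2 placed of 4 erythroid markers, ALAS2 stayed under 1 FPKM, and the hemoglobin gene HBA2 was at 12.9 FPKM in Raji-4RH chidamide replicate 1 and 0.444 FPKM or less in the other 7 libraries. Most of these sums moved with treatment or line, and their part in the results below was not tested. In bulk RNA, fewer cells of a kind and less RNA per cell cannot be told apart.

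With chidamide, the members split into those that went down and those that went up. CD79A, BLNK, BTK and BLK were lower in both lines, PTPN6, CD22 and PLCG2 were higher in both, and SYK and CD79B each passed the threshold in 1 line only. In Raji-4RH, 4 of the 9 members were higher and 4 were lower, where 43.3% of all genes tested were higher and 31.6% were lower. In Raji, 4 were higher and 4 were lower, against 31.5% and 28.5% of all genes tested. For 9 genes such counts lie near the shares over all genes, and they are given as a description. The median difference of the members was 0.05 in Raji-4RH (0.09 over all genes) and 0.09 in Raji (0.02 over all genes). The DMSO libraries serve in more than 1 comparison, so the comparisons are not independent of each other.

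**Figure D1:**
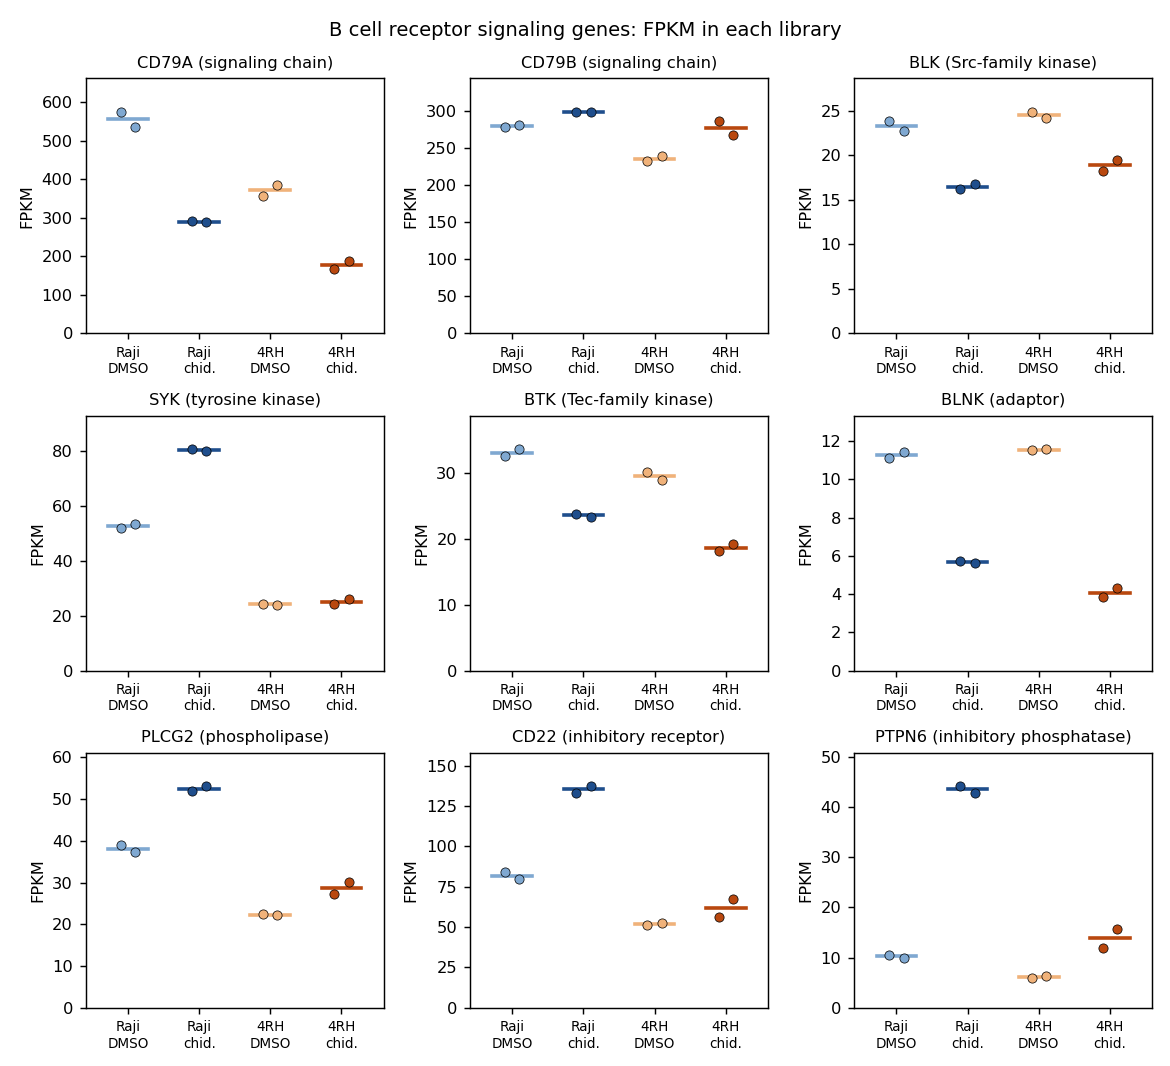
FPKM of the 9 members (y axis from 0, scaled per panel) in each library (points, 2 per group) with the group mean (bar), for Raji and Raji-4RH (4RH) with DMSO or chidamide (chid.). CD79A, BLNK, BTK and BLK sit lower in both chidamide groups, PTPN6, CD22 and PLCG2 sit higher, and SYK is higher with chidamide in Raji alone.

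The signaling chains moved apart. CD79A, on chromosome 19 (41877120-41881372, plus strand, GRCh38, 4 blocks of joined exons), had the highest FPKM of the members with DMSO. It stood at 575 and 537 FPKM in Raji DMSO, 292 and 288 FPKM in Raji chidamide, 357 and 385 FPKM in Raji-4RH DMSO, and 166 and 189 FPKM in Raji-4RH chidamide. Every chidamide library was below the DMSO libraries of its line. CD79A fell by 0.94 ± 0.0774 (log2, SE) in Raji (limma adjusted p = 2.17e-05) and by 1.06 ± 0.0774 in Raji-4RH (limma adjusted p = 4.14e-06), mean levels being 1.92-fold and 2.09-fold lower.

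CD79B, its partner on chromosome 17 (63928740-63932354, minus strand), stayed within a narrow range. Its levels were 278 and 281 FPKM in Raji DMSO, 298 and 298 FPKM in Raji chidamide, 232 and 238 FPKM in Raji-4RH DMSO, and 286 and 268 FPKM in Raji-4RH chidamide. In Raji-4RH it was higher with chidamide by 0.23 ± 0.0560 (limma adjusted p = 0.00499), and with the libraries centred on their medians the difference was 0.16 and no longer passed (limma adjusted p = 0.0553), while quantile normalization gave 0.15 (limma adjusted p = 0.0348). In Raji the difference was 0.09, with a 95% confidence interval from -0.04 to 0.22 (limma adjusted p = 0.192), although the libraries did not overlap. Without either Raji-4RH chidamide library the same 0.09 in Raji passed (limma adjusted p = 0.0360 and 0.0355), and quantile normalization gave 0.15 (limma adjusted p = 0.0481). CD79B shares 288 bases of exon with the same-strand gene AC127029.3, and reads there cannot be told apart.

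The ratio of CD79A to CD79B FPKM within a library does not depend on the library total. In Raji it was 2.07 and 1.91 with DMSO and 0.977 and 0.969 with chidamide. In Raji-4RH it was 1.54 and 1.62 with DMSO and 0.582 and 0.706 with chidamide. By FPKM, CD79A thus exceeded CD79B in the 4 DMSO libraries and lay below it in the 4 chidamide libraries. Which mRNA leads depends on the lengths used, 1503 bases for CD79A and 2080 for CD79B. The change of the ratio with chidamide within a line does not depend on them. The ratio was not tested. The smallest two-sided p that exact permutation of 2 against 2 libraries allows is 0.333. This limit holds for each comparison of 2 groups here, and the smaller limma p-values rest on its model of the spread.

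**Figure D2:**
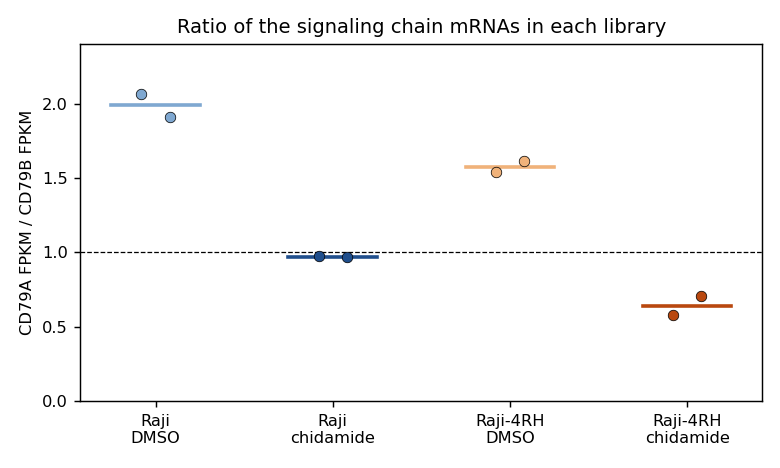
Ratio of CD79A to CD79B FPKM (y axis from 0) in each library (points) with the group mean (bar), and a dashed line at equal FPKM. The 4 DMSO libraries lie between 1.54 and 2.07, and the 4 chidamide libraries lie between 0.582 and 0.977.

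Among the kinases, BLK and BTK fell and SYK did not. BLK is a Src-family kinase found mainly in B cells (chromosome 8, 11486894-11564604, plus strand). It was at 23.8 and 22.7 FPKM in Raji DMSO and 16.2 and 16.8 FPKM in Raji chidamide, and at 24.9 and 24.2 FPKM in Raji-4RH DMSO and 18.3 and 19.5 FPKM in Raji-4RH chidamide. The chidamide libraries were the lower ones in both lines, and BLK fell by 0.47 ± 0.0553 in Raji (limma adjusted p = 0.000143) and by 0.36 ± 0.0553 in Raji-4RH (limma adjusted p = 0.000371), where quantile normalization gave a smaller fall, -0.18. The row that carries the BLK label in the table as deposited gives the opposite direction, a rise of 0.79 in Raji and 1.23 in Raji-4RH, so the result for BLK rests on the placing of its values. BLK shares 65 bases with the antisense gene AC022239.1, and reads of both cannot be told apart if strand was not used in counting.

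BTK, the Tec-family kinase that ibrutinib inhibits (chromosome X, 101349447-101390796, minus strand), went from 32.5 and 33.7 FPKM in Raji DMSO to 23.8 and 23.3 FPKM in Raji chidamide. In Raji-4RH it went from 30.1 and 28.9 FPKM to 18.1 and 19.2 FPKM. The groups did not overlap in either line, and BTK fell by 0.47 ± 0.0536 in Raji (limma adjusted p = 0.000120) and by 0.63 ± 0.0536 in Raji-4RH (limma adjusted p = 1.00e-05).

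SYK, the kinase that carries the signal away from the receptor (chromosome 9, 90801787-90898549, plus strand), was at 52.1 and 53.6 FPKM in Raji DMSO and 80.8 and 79.8 FPKM in Raji chidamide. In Raji-4RH it was at 24.2 and 24.1 FPKM with DMSO and 24.2 and 25.98 FPKM with chidamide. SYK rose by 0.60 ± 0.0522 in Raji (limma adjusted p = 3.04e-05). In Raji-4RH the groups overlapped and the difference was 0.05, with a 95% confidence interval from -0.07 to 0.17 (limma adjusted p = 0.385). That difference changed with scaling, to -0.02 with median-centred libraries and to 0.27 with quantile normalization, where it passed the threshold (limma adjusted p = 0.00217). The row carrying the SYK label gives -0.12 in Raji and 0.57 in Raji-4RH, so this result too rests on the placing.

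The adaptor and the phospholipase that BTK acts on moved in opposite directions. BLNK (chromosome 10, 96191702-96271587, minus strand) stood at 11.1 and 11.4 FPKM in Raji DMSO and 5.74 and 5.64 FPKM in Raji chidamide. In Raji-4RH it stood at 11.5 and 11.6 FPKM with DMSO and 3.87 and 4.29 FPKM with chidamide. All DMSO libraries were above all chidamide libraries, and BLNK fell by 0.88 ± 0.0584 in Raji (limma adjusted p = 6.77e-06) and by 1.31 ± 0.0584 in Raji-4RH (limma adjusted p = 3.10e-07), with mean levels 1.98-fold and 2.83-fold lower. BLNK shares 355 bases with ZNF518A on the opposite strand, and reads there cannot be told apart if strand was not used.

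PLCG2, which cleaves a membrane lipid to release the calcium signal (chromosome 16, 81739097-81962693, plus strand), was at 38.9 and 37.2 FPKM in Raji DMSO and 51.9 and 53.1 FPKM in Raji chidamide. In Raji-4RH it was at 22.4 and 22.2 FPKM with DMSO and 27.2 and 30.2 FPKM with chidamide. The chidamide libraries were higher in both lines, by 0.45 ± 0.0603 in Raji (limma adjusted p = 0.000285) and by 0.35 ± 0.0603 in Raji-4RH (limma adjusted p = 0.000774), where quantile normalization gave 0.58. The row carrying the PLCG2 label did not reach the filter for testing, so this result rests on the placing. PLCG2 shares 386 and 318 bases with the same-strand genes AC099524.1 and RN7SKP176, whose reads cannot be told apart there.

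Both inhibitory members rose in both lines. PTPN6 (chromosome 12, 6946468-6961316, plus strand) had the largest response of the 9 members in Raji, from 10.6 and 9.85 FPKM with DMSO to 44.2 and 42.8 FPKM with chidamide. In Raji-4RH it went from 5.95 and 6.33 FPKM to 11.9 and 15.8 FPKM. The rise was 1.99 ± 0.109 in Raji (limma adjusted p = 2.48e-06) and 1.04 ± 0.109 in Raji-4RH (limma adjusted p = 3.61e-05), and mean levels were 4.26-fold and 2.25-fold higher. With its rise PTPN6 moved from the last place among the 9 members in Raji DMSO to place 6 in Raji chidamide, above BTK, BLK and BLNK.

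CD22 (chromosome 19, 35319261-35347355, plus strand) was at 83.9 and 80.0 FPKM in Raji DMSO and 133 and 137 FPKM in Raji chidamide. In Raji-4RH it was at 51.3 and 52.3 FPKM with DMSO and 56.4 and 67.5 FPKM with chidamide, and these groups also lay apart. The rise was 0.72 ± 0.0807 in Raji (limma adjusted p = 0.000114) and 0.25 ± 0.0807 in Raji-4RH (limma adjusted p = 0.0213). The call in Raji-4RH depended on the libraries and the scaling. It was lost without Raji-4RH DMSO replicate 1 (0.23, limma adjusted p = 0.0981) or replicate 2 (0.26, limma adjusted p = 0.0722), with median-centred libraries (0.17, limma adjusted p = 0.0637) and when only the Raji-4RH libraries were fitted (0.25, limma adjusted p = 0.0719). Without Raji-4RH chidamide replicate 2, the higher of that pair, the difference was 0.12 (limma adjusted p = 0.0472), without replicate 1 it was 0.38, and quantile normalization gave 0.55.

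**Figure D3:**
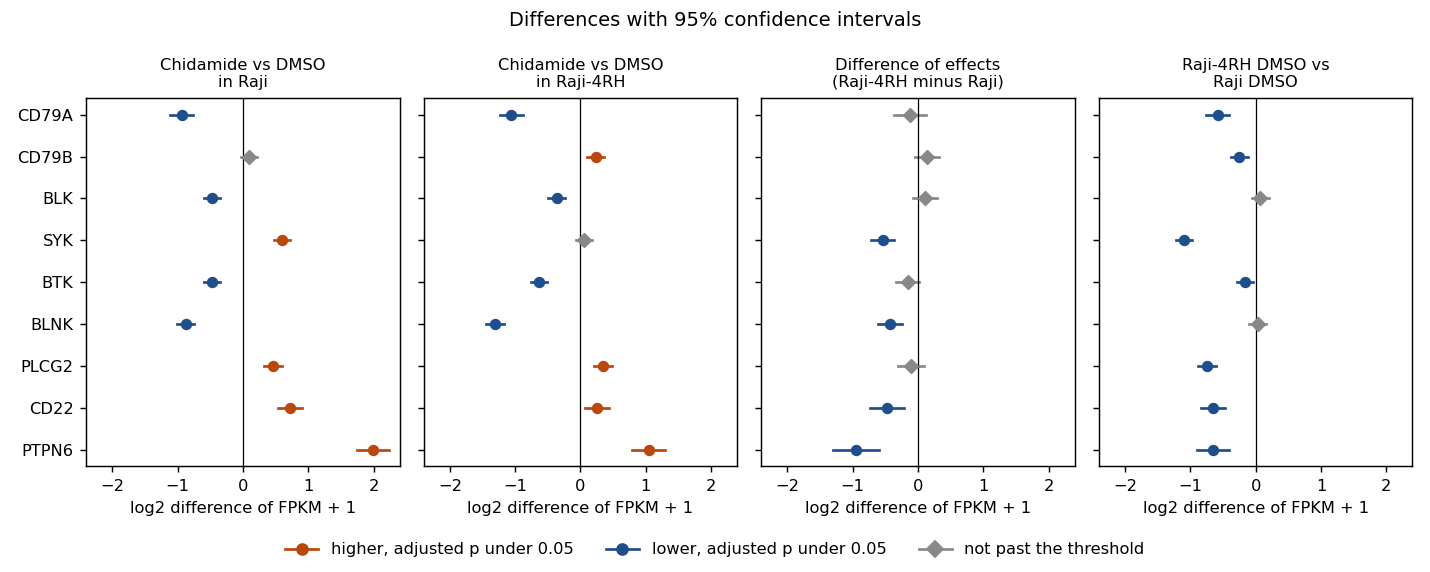
Difference on the log2(FPKM + 1) scale (x axis) with its 95% confidence interval for the 9 members in 4 comparisons. Orange circles are higher and blue circles lower at an adjusted p under 0.05, and gray diamonds did not pass. In both chidamide panels CD79A, BLK, BTK and BLNK lie left of 0 and PLCG2, CD22 and PTPN6 lie right of it.

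Whether the lines differed in their response was tested as the difference of the effects, Raji-4RH minus Raji. Of the 9 members, 4 had a lower value in Raji-4RH and none a higher one, where 21.7% and 27.2% of all genes tested were called lower and higher. The difference was -0.95 ± 0.154 for PTPN6 (limma adjusted p = 0.00146), -0.54 ± 0.0738 for SYK (limma adjusted p = 0.000578) and -0.47 ± 0.114 for CD22 (limma adjusted p = 0.00997), each with the larger effect in Raji. BLNK fell further in Raji-4RH, with a difference of -0.43 ± 0.0825 (limma adjusted p = 0.00336). For the other members the interval of the difference included 0, from -0.38 to 0.13 for CD79A, -0.04 to 0.32 for CD79B, -0.07 to 0.29 for BLK, -0.33 to 0.01 for BTK and -0.30 to 0.09 for PLCG2, which does not show that the lines respond alike. The count depends on 1 library: without Raji-4RH chidamide replicate 2, 8 members were called, 7 lower and 1 higher, the remaining replicate being assumed to vary like the other groups. CD79A, BTK and PLCG2 were then lower (-0.22, -0.20 and -0.18) and CD79B higher (0.19), with limma adjusted p from 0.0148 to 0.0439. The median difference of the members was -0.16, against 0.04 over all genes.

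With DMSO alone, the resistant line had less of most members. Of 9 members, 7 were lower in Raji-4RH than in Raji and none was higher. Over all genes tested, 32.4% were lower and 41.2% were higher. The median of the members was -0.58, against 0.06 over all genes. SYK differed most, with 24.2 and 24.1 FPKM in Raji-4RH against 52.1 and 53.6 FPKM in Raji, a difference of -1.10 ± 0.0522 (limma adjusted p = 3.04e-07), with the mean 2.19-fold lower. In the row carrying the SYK label the value is -0.01, so the difference rests on the placing of SYK. PLCG2 differed by -0.75 ± 0.0603 (limma adjusted p = 7.80e-06), CD22 by -0.65 ± 0.0807 (limma adjusted p = 0.000110), PTPN6 by -0.65 ± 0.109 (limma adjusted p = 0.000683) and CD79A by -0.58 ± 0.0774 (limma adjusted p = 0.000169). The PLCG2 difference also rests on its placing, since the row carrying its label did not reach the filter.

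CD79B (-0.25 ± 0.0560, limma adjusted p = 0.00371) and BTK (-0.16 ± 0.0536, limma adjusted p = 0.0241) differed less between the lines. The BTK call was lost without Raji DMSO replicate 2 (-0.14, limma adjusted p = 0.108), without Raji-4RH DMSO replicate 1 (-0.19, limma adjusted p = 0.0516) and without Raji-4RH DMSO replicate 2 (-0.13, limma adjusted p = 0.146). The levels of BLNK and BLK did not pass the threshold, with intervals from -0.10 to 0.17 and from -0.05 to 0.20. BLNK was at 11.1 to 11.6 FPKM in all 4 DMSO libraries.

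The order of the members by FPKM, a level per length, shifted with line and drug. In Raji DMSO it ran CD79A, CD79B, CD22, SYK, PLCG2, BTK, BLK, BLNK and PTPN6, with means from 556 ± 27.3 (SD, n = 2) down to 10.2 ± 0.526 FPKM, and no neighbours overlapped between libraries. With chidamide CD79B led in both lines (298 ± 0.580 FPKM in Raji and 277 ± 12.98 FPKM in Raji-4RH, SD, n = 2). SYK ranked 4 of 9 in Raji with either treatment, and in Raji-4RH it ranked 6 with DMSO and 5 with chidamide. BLK and SYK overlapped in Raji-4RH DMSO, and BLK and BTK overlapped in Raji-4RH chidamide.

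Members could also be set against each other by their pattern, as the root mean square difference of log2(FPKM + 1) over the 8 libraries after each gene is centred on its mean. PLCG2 and CD22 were closest (0.113), followed by BLK and BTK (0.211), CD79A and BLNK (0.252) and SYK and CD22 (0.260). Among the 6612 tested genes whose mean level reached 5 FPKM, the nearest to each member was MRPS2 for CD79A (0.0783), USP45 for CD79B (0.0372), PHF8 for BLK (0.0412), RANBP10 for SYK (0.0729), RMI1 for BTK (0.0271), GEMIN4 for BLNK (0.0641), GRHPR for PLCG2 (0.0612), CAPZB for CD22 (0.0686) and CD86 for PTPN6 (0.185). PTPN6 was thus the member whose nearest gene lay farthest.

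The wider pathway was described with 9 lists of 112 other genes, of which 102 were placed and 98 tested. The 6 immunoglobulin chains listed, IGHM, IGHD, IGKC, IGLC1, IGLC2 and IGLC3, were not placed, nor were ORAI1, PPP3R1, NRAS and PECAM1, and PIK3R2, PIK3R5, CD5 and DOK2 did not reach the filter. In Raji-4RH 53 of the 98 were higher with chidamide and 23 lower, and in Raji 54 were higher and 20 lower, with medians of 0.25 and 0.23. Over all genes tested, 43.3% were higher and 31.6% lower in Raji-4RH, and 31.5% and 28.5% in Raji. For the difference of the effects 25 were higher and 29 lower in Raji-4RH, and between the lines with DMSO 40 were higher and 36 lower in Raji-4RH. Over all genes these shares were 27.2% and 21.7% for the difference and 41.2% and 32.4% between the lines, so that the higher counts of both lie near the background. The counts of each list below are to be read against the same shares. A gene that reached the filter only with chidamide could enter only as a rise with chidamide, in the lists and over all genes alike.

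Inhibitory receptors had the largest medians of the lists with chidamide. Of 11 tested, 8 were higher with chidamide in each line, 3 were lower in Raji-4RH and 1 in Raji, with medians of 1.27 and 1.65. FCRL2 and FCRL5 reached the 1 FPKM of the filter only in chidamide libraries, so they could enter only as rises. Both are part of these counts and medians. The list took in the Fc receptor-like proteins as a family, although not all of them are inhibitory: FCRL1 is known as an activating co-receptor and FCRLA is an intracellular protein. FCRL3 went from 3.45 and 3.51 FPKM to 34.6 and 33.4 FPKM in Raji and from 0.881 and 1.08 FPKM to 3.40 and 3.56 FPKM in Raji-4RH, a rise of 2.97 ± 0.0653 in Raji (limma adjusted p = 5.05e-08). FCRL1 went from 0.257 and 0.252 FPKM to 8.79 and 7.97 FPKM in Raji and from 3.69 and 2.97 FPKM to 14.1 and 13.3 FPKM in Raji-4RH. FCRL5, at most 0.103 FPKM in any DMSO library, reached 4.72 and 4.94 FPKM in Raji chidamide and 2.30 and 2.27 FPKM in Raji-4RH chidamide. Since FCRL5 in both lines and FCRL1 in Raji were near 0 with DMSO, their differences on this scale are smaller than their ratios. FCRL2 was at 0.538 FPKM or less with DMSO and at 3.77 to 4.54 FPKM in the chidamide libraries. Within this list the difference of the effects was lower in Raji-4RH for 8 of the 11 tested genes and higher for 1, FCGR2B. In the rows carrying their labels the differences in Raji were -0.070 for FCRL3, -0.89 for FCRL1 and -0.061 for FCRL5, so these rises rest on the placing of the genes.

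FCGR2B, the inhibitory Fc receptor, was at 6.94 and 6.93 FPKM in Raji DMSO and 0.232 and 0.184 FPKM in Raji-4RH DMSO, and with chidamide it rose to 10.3 and 9.13 FPKM and to 2.97 and 3.09 FPKM. FCGR2B has near-identical relatives, and how reads were divided among them is not given in the sources used here. The falls in this list in Raji-4RH were those of FCRLA, from 64.9 and 61.7 FPKM to 28.9 and 33.1 FPKM (-1.01 ± 0.0701, limma adjusted p = 3.14e-06), of SIGLEC10, from 7.23 and 7.81 FPKM to 3.39 and 3.83 FPKM (-0.89 ± 0.0673, limma adjusted p = 5.22e-06), and of CD72 (-0.46, limma adjusted p = 5.49e-05).

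**Figure D4:**
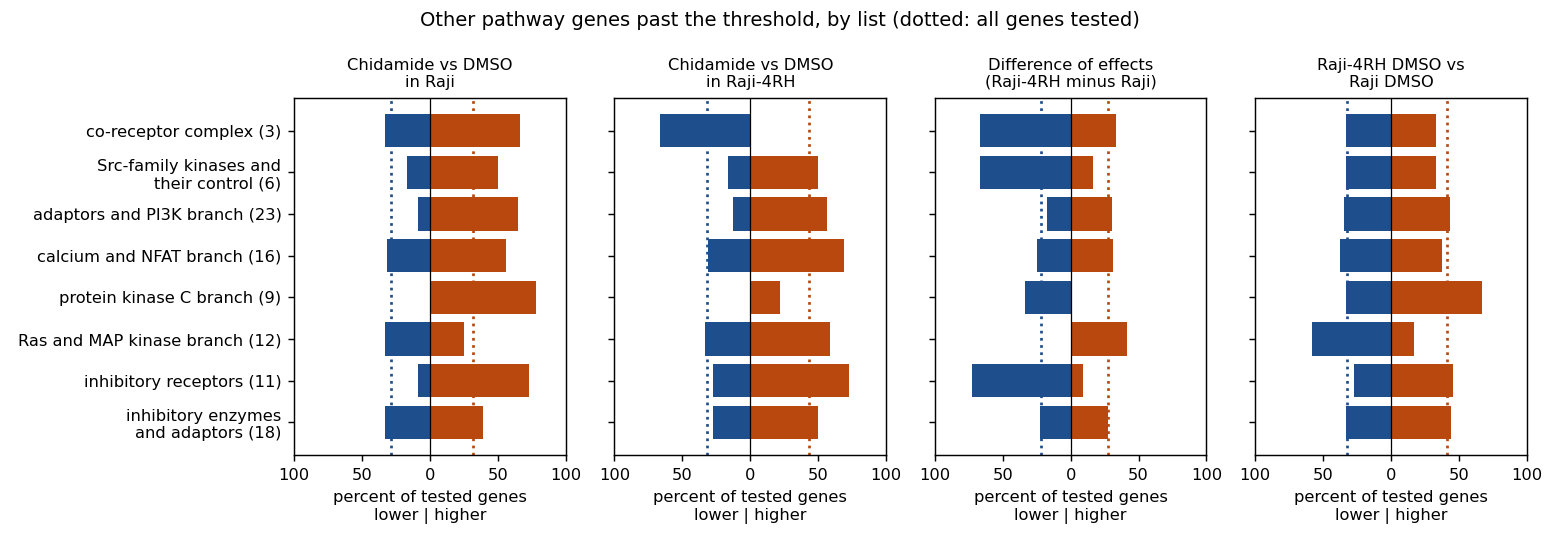
Share of the tested genes of 8 pathway lists (number tested in parentheses) called higher (orange, right) or lower (blue, left) in 4 comparisons, in percent. Dotted lines mark the shares over all 10710 genes tested. Inhibitory receptors have 8 of 11 genes higher with chidamide in each line, among them FCRL2 and FCRL5, which passed the filter only through chidamide libraries.

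In the co-receptor complex, which lowers the threshold of the BCR, 2 of 3 genes were higher and 1 lower with chidamide in Raji, and 2 were lower in Raji-4RH. CR2 (CD21), the complement receptor of this complex, went from 31.4 and 33.4 FPKM to 127 and 125 FPKM in Raji and was at 0.161 FPKM or less in the 4 Raji-4RH libraries. CD81 fell in both lines, by 1.16 in Raji, from 29.7 and 28.8 FPKM to 13.1 and 12.1 FPKM, and by 0.80 in Raji-4RH. IFITM1, whose reads may be shared with its close relatives, was at 34.6 and 36.3 FPKM in Raji-4RH DMSO, 15.3 and 12.8 FPKM in Raji-4RH chidamide and at 0.489 FPKM or less in Raji. Its counted rise in Raji thus lay under 1 FPKM.

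Downstream of PLCG2, the protein kinase C branch, which leads to NF-κB, had 7 of 9 genes higher with chidamide in Raji, where 31.5% of all genes were higher, and 2 of 9 in Raji-4RH, below the 43.3% of all genes, and none lower. PRKCB, the protein kinase C form best known from B cells, was at 20.9 and 20.7 FPKM in Raji DMSO and 38.6 and 38.3 FPKM in Raji chidamide but at 0.0926 FPKM or less in the 4 Raji-4RH libraries. In the same list PRKCA was higher in Raji-4RH DMSO (10.8 and 10.5 FPKM) than in Raji DMSO (2.29 and 2.55 FPKM). The line difference with DMSO was -4.39 for PRKCB and 1.77 for PRKCA, against 0.15 and 0.59 in the rows carrying their labels, so both rest on the placing.

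In the calcium and NFAT branch, 11 of 16 genes were higher and 5 lower with chidamide in Raji-4RH, and 9 and 5 in Raji. ITPR2, a calcium channel of the endoplasmic reticulum, rose by 1.60 ± 0.0591 in Raji-4RH (limma adjusted p = 1.29e-07), from 2.59 and 2.49 FPKM to 9.70 and 9.69 FPKM. In Raji ITPR2 also went up, from 1.92 and 2.08 FPKM to 5.76 and 5.41 FPKM. NFATC1 fell in Raji by 0.79 ± 0.129 (limma adjusted p = 0.000906), from 15.2 and 12.8 FPKM to 7.49 and 7.80 FPKM, while the row carrying its label gives -0.47 (limma adjusted p = 0.0523). In Raji-4RH NFATC1 also went down, from 22.6 and 23.0 FPKM to 11.5 and 15.7 FPKM. NFATC2 was higher in Raji-4RH DMSO (16.1 and 16.5 FPKM) than in Raji DMSO (4.96 and 4.97 FPKM), by 1.53.

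In the Ras and MAP kinase branch, 7 of 12 genes were higher and 4 lower in Raji-4RH (43.3% and 31.6% of all genes), and 3 were higher and 4 lower in Raji, near the 31.5% and 28.5% of all genes. With DMSO 7 of the 12 were lower in Raji-4RH than in Raji, against 32.4% of all genes. The Ras activators RASGRP2, at 36.1 and 30.5 FPKM, and RASGRP3, at 14.7 and 15.9 FPKM in Raji DMSO, fell with chidamide in Raji by 1.18 and 0.81. In Raji-4RH RASGRP2 also went down, from 18.6 and 19.3 FPKM to 10.7 and 12.9 FPKM. RASGRP3 did not, at 3.53 and 3.25 FPKM with DMSO and 3.93 and 3.81 FPKM with chidamide. RASGRP1 was at 10.7 and 11.4 FPKM in Raji DMSO and 2.11 and 2.02 FPKM in Raji-4RH DMSO, a difference of -1.98. The line difference of RASGRP3 with DMSO was -1.90.

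Of the Src-family kinases and their controls, 3 of 6 were higher and 1 lower with chidamide in each line. LCK, best known from T cells, was at 43.4 and 42.8 FPKM in Raji-4RH DMSO and 8.16 and 7.73 FPKM in Raji DMSO, higher by 2.30. In the row carrying the LCK label the difference is 0.019 (limma adjusted p = 0.791), so it rests on the placing of LCK. FGR, another Src-family kinase, rose in Raji-4RH and fell in Raji, from 22.3 and 22.7 to 38.7 and 40.4 FPKM and from 82.2 and 77.1 to 68.1 and 67.6 FPKM.

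Among the adaptors and the PI3K branch, 13 of 23 were higher and 3 lower in Raji-4RH, and 15 and 2 in Raji. TEC, a kinase related to BTK, fell in Raji-4RH by 0.83 ± 0.0696 (limma adjusted p = 9.17e-06), from 6.73 and 6.22 FPKM to 3.00 and 3.39 FPKM, and the row carrying the TEC label gives 0.56. Of 18 inhibitory enzymes and adaptors, 9 were higher and 5 lower in Raji-4RH, and 7 and 6 in Raji. DOK3, an adaptor that restrains the signal, fell in both lines, by 1.58 ± 0.121 in Raji-4RH (limma adjusted p = 5.55e-06), from 65.3 and 73.6 FPKM to 19.6 and 25.9 FPKM, and by 0.84 ± 0.121 in Raji (limma adjusted p = 0.000448), from 50.7 and 45.1 FPKM to 26.6 and 25.9 FPKM. The lists were written with earlier results of these libraries known, and their counts are descriptions.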

How the data were processed

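RNA-seq of 8 libraries (4 groups of 2) was analyzed. According to the study's methods, RNA was extracted with TRIzol, the NEBNext Ultra kit was used for the libraries, and sequencing was done on an Illumina HiSeq X instrument. The submitters' processing notes name hg38 (GRCh38), HISAT2 2.0.5, SAMtools 1.7, HTSeq 0.9.1 and DESeq2 1.22.2. The authors deposited 1 table of FPKM values with gene lengths, and 96.6% of the 58039 IDs that GENCODE v29 also holds have the same length as its joined exons. Library totals were fitted to the spacing of the FPKM values, as the numbers that turn them into whole reads. Multiplied by length and these totals, 100% of the non-zero FPKM values deposited came out as whole reads (within 0.01). This was the aim of the fit and is no separate check of the totals. The table has 63967 labels, but its last 662 rows repeat the first 662, so values of 63305 genes stand beside more labels. The distance between label and values was taken from row ranges found earlier on this table, in 12 steps, and FPKM was rescaled with the gene's own length. This placed 18143 labels, holding 90.7% to 93.2% of the reads of each library. Placing of any single gene was not tested.

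Differences were tested with limma 3.58.1 (R 4.3.3; a linear model with empirical Bayes variances and a mean-variance trend) on log2(FPKM + 1), with 1 mean per group over all 8 libraries. A count-based test of the recovered reads was run only as an alternative (limma voom). On simulated data, with the same spread in every group and few genes changed, the fit was checked before use. That check does not show how the fit behaves with unequal spread or with most genes changed. Alternatives were the rows as deposited, voom, a replicate block, each library left out in turn, only the libraries compared, a pseudocount of 0.1, no filter or one on the mean (1 FPKM), no trend, quantile normalization and centring of libraries on their medians. A crossed replicate block was added after the data were seen. All members were named. Other pathway genes named are, per comparison, up to 5 called rises and 5 called falls of largest size whose mean level reached 1 FPKM and whose groups lay apart. Some of these or the other list genes are also named in other comparisons, after their values were seen. They are CR2, CD81, FCRL3, FGR, PRKCB, CD72, ITPR2, NFATC1, RASGRP2 and RASGRP3. For each member the gene of nearest pattern is named. The members and gene lists were chosen with earlier results of these data known. Python 3.11.15, pandas 2.3.3, numpy 2.4.6 and matplotlib 3.10.9 were used. Immunoglobulin genes and some other genes of the lists are not reported here.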

Additional observations from a re-analysis of the deposited data

Results flagged for a closer look

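The effect of chidamide differed between the lines, by the test of that difference itself (limma adjusted p under 0.05), for 4 members and for 10 other named pathway genes. Values are the effect in Raji-4RH minus that in Raji. The members were PTPN6 (-0.95), SYK (-0.54), CD22 (-0.47) and BLNK (-0.43).

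Among the other genes, the value was -1.91 for CR2, which was at 0.161 FPKM or less in the Raji-4RH libraries, -1.79 for FCRL3, -1.65 for IFITM1, -1.13 for FCRL1 and -0.99 for VAV2, a guanine exchange factor of the PI3K branch. The value was 1.31 for FCGR2B, 1.01 for FGR, 0.96 for RASGRP3, 0.72 for DOK1, an inhibitory adaptor, and 0.63 for RASGRP1. VAV2 fell in Raji-4RH and rose in Raji. IFITM1 fell in Raji-4RH, while in Raji it stayed under 1 FPKM, at 0.0469 and 0.0460 FPKM with DMSO and 0.225 and 0.489 FPKM with chidamide. The RASGRP1 call was lost with quantile normalization (0.21, limma adjusted p = 0.118). The DOK1 value depends on the scale: DOK1 was at 0.0651 FPKM or less in Raji DMSO, and with a pseudocount of 0.1 the value was 0.30 (limma adjusted p = 0.300). No group had the 4 libraries needed to look for single libraries standing apart.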

How the results depend on the processing

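The counts of called genes, members and pathway genes kept within 1.5 times their reported values in 211 of 216 alternatives. The exceptions were the pathway counts in the rows as deposited, where labels and values are out of step (50 in Raji-4RH, 41 in Raji, 28 for the difference of effects and 46 between the lines), and 8 members called for the difference of effects without Raji-4RH chidamide replicate 2. Leaving out 1 library gave 4 to 8 members for that comparison. For the members' own values, 615 of 644 alternatives kept direction and side of the threshold. The row carrying the PLCG2 label did not reach the filter, so PLCG2 has no value for the rows as deposited. The same held for DOK3, RASGRP1, RASGRP3, IFITM1, FCRL2, SIGLEC10 and VAV2 among the other named genes, whose results thus rest on the placing. In the rows as deposited BLK turned to 1.23 in Raji-4RH, 0.79 in Raji and -0.20 between the lines, and SYK to -0.12 in Raji and 0.69 for the difference of effects. Among other genes these rows turned FCRL1 to -1.36, FCRL5 to -0.60, FCRLA to 0.37 and TEC to 0.56 in Raji-4RH, FCRL3 to -0.070, FCRL1 to -0.89 and FCRL5 to -0.061 in Raji, FCRL3 to 0.20 for the difference, and PRKCB to 0.15 between the lines. Median centring turned SYK in Raji-4RH to -0.024 and BLNK between the lines to -0.012. Quantile normalization turned the differences of effects for CD79A and PLCG2 to 0.013 and 0.012. DOK1 turned to -0.53 for the difference of effects with voom. Quantile normalization also changed the split over all genes in Raji-4RH from 4642 higher and 3380 lower to 3718 and 4057. For these turns the cause was not tested, apart from the out-of-step labels.

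With the replicate number as a replicate block, 8, 8, 4 and 7 members were called in Raji-4RH, Raji, the difference of effects and the line comparison, as without it. Same-numbered libraries deviated from their group means with correlations across genes from -0.279 to 0.166, so the numbers were not taken as pairs. With the pairing crossed in the line comparison, added after the data were seen, 7969 genes were called against 7882 without a block. With 2 libraries per group, small differences could have been missed, and the smallest detectable size was not computed.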
